A study of Mus musculus with 34 samples.

Results

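The 10 genes of skeletal muscle development and regeneration followed here were Actc1, Chrna1, Chrng, Myh3, Myh8, Myl4, Myog, Myod1, Myf6 and Ankrd1. They were read from 14 probe sets of the 22690 on the array (12394 genes by single symbol), which are all the probe sets that the platform annotation assigns to these 10 symbols. The genes were chosen by their known roles together with earlier results on these same arrays, in which Actc1 and Chrna1 had been named in knockout tibialis. Their differences between mutant and wild-type muscle are therefore given as a description: no p is printed for a member, and the number that passed a fit over all probe sets stands only beside the share of all probe sets that did. The comparisons among wild-type muscles are tested. They are other contrasts, but they reuse the wild-type arrays of those that led to the choice, so their p-values are not independent of it.

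The arrays came from mice whose muscle glycogen synthase, encoded by Gys1, was either absent (MGSKO, here KO) or overexpressed (GSL30), each with its own wild-type (WT) mice. The muscle groups were anterior tibialis at 3 months (4 KO and 4 WT arrays, labelled C57BL6/129SV), medial gastrocnemius at 3 months (3 KO and 5 WT arrays) and medial gastrocnemius at 8 months (5 GSL30 and 5 WT arrays). A further 4 KO and 4 WT liver arrays at 3 months served here only as a tissue without muscle fibres. As background, the GSL30 transgene is driven by the muscle creatine kinase promoter and encodes an enzyme altered at inhibitory phosphorylation sites, and many mice without Gys1 die around birth, so the adults are survivors. The labels do not say that the arrays of a group came from separate animals, so p-values measure the spread between these arrays, which may be technical.

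The values were linear intensities, scaled so that each array's trimmed mean lay between 1000.3 and 1000.5. Gys1 ranged over 34.2 to 72.5 in KO tibialis against 8183.7 to 9958.2 in WT tibialis, and over 58.1 to 165 in KO gastrocnemius against 3954.7 to 6377.6 in WT gastrocnemius. In the overexpressing line Gys1 ranged over 7895.5 to 10404.4 in GSL30 gastrocnemius against 5840 to 7184.8 in WT. The summed intensity of 10 skeletal fibre markers, among them creatine kinase Ckm, lay between 362850 and 1673100 in all 26 muscle arrays and between 1243.6 and 3263.2 in the 8 liver arrays. Some gastrocnemius arrays stood apart. Hepatocyte markers, 10 of 12 measured and none at 0, summed to 45031 to 156100 in KO gastrocnemius and 48049 to 716150 in WT gastrocnemius at 3 months, to 2598.8 to 6269.9 in GSL30 and 7246.9 to 31154 in WT gastrocnemius at 8 months, and to no more than 3846 in any tibialis array. The 8 liver arrays gave 457620 to 600090 for the same sum. WT gastrocnemius replicate 2 at 3 months held the highest of both sums, and its hepatocyte sum lay above that of every liver array. Its Acta1 was 239866.8, against 37785.6 to 55382.6 in the other 4 arrays of its group. The cause of these gastrocnemius values was not tested. The comparisons that use these arrays are given below also without the 3 WT arrays of highest hepatocyte score at 3 months (replicates 1, 2 and 4) and the 2 at 8 months (replicates 2 and 5). That setting removed WT arrays alone: the 3 KO gastrocnemius arrays, with scores of 11.457 to 13.514 (mean log2 level of 10 markers), and WT replicates 3 and 5, at 12.784 and 11.513, stayed in and lay above every tibialis array, at most 7.946.

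In the embryo, muscle precursors commit and differentiate under 4 related transcription factors, of which Myod1, Myog (myogenin) and Myf6 (MRF4) are 3. New fibres first assemble fetal isoforms, such as cardiac alpha-actin (Actc1), the embryonic and perinatal myosin heavy chains (Myh3 and Myh8), the embryonic and atrial essential light chain (Myl4) and the gamma subunit of the acetylcholine receptor (Chrng), which adult isoforms later replace. Regenerating fibres pass through the same sequence again. Denervated fibres raise Myog and the alpha subunit of the receptor (Chrna1) away from the synapse, and Ankrd1, a titin-binding ankyrin repeat protein, is raised by mechanical stress.

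The factors of the MyoD family bind the E-box CANNTG, and serum response factor binds the CArG box. RefSeq promoter windows on GRCm38.p6, from 250 bases before to 50 bases after the gene start, were at hand for 8 of the 10 genes, and Myod1 and Myf6 had none. The 4 windows below are shown as examples. Actc1 was higher in all 3 mutant muscles and Chrna1 in both knockout muscles. Chrng was dim in all its probe sets, and Myog differed in opposite directions in the 2 knockout muscles. Myl4 and Ankrd1, whose brighter probe sets did not overlap between KO and WT tibialis, are not shown. Capitals mark each CANNTG and, in Actc1, also the CArG box. The Actc1 window is chr2:114052826-114053125 on the minus strand, Chrna1 chr2:73580289-73580588 on the minus strand, Chrng chr1:87205561-87205860 on the plus strand and Myog chr1:134289754-134290053 on the plus strand.
Actc1: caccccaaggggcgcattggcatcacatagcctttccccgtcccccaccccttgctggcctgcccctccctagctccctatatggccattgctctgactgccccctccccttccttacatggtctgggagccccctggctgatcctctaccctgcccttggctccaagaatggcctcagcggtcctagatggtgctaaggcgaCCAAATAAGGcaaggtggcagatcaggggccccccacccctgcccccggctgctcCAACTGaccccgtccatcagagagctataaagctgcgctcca
Chrna1: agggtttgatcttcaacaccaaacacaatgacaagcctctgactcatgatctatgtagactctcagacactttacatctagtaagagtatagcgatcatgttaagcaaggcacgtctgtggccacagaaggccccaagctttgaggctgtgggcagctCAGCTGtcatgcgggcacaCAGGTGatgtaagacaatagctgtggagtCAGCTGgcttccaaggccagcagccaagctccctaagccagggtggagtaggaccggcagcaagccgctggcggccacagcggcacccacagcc
Chrng: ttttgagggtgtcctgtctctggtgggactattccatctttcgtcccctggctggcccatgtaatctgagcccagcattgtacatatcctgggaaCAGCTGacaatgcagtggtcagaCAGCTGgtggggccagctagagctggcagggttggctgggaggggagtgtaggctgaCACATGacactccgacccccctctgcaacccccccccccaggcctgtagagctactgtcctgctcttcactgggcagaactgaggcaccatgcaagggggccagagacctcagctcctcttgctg
Myog: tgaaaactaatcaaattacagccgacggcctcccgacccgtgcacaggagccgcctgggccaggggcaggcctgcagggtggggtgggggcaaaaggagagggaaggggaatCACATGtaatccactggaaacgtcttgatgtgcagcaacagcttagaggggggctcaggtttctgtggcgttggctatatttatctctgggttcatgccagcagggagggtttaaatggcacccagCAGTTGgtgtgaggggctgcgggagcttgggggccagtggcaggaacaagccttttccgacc

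Counted from the gene start as +1, the CArG box of Actc1 began at -47 and its CANNTG at 9. Chrna1 held CANNTG at -92, -73 and -44, those at -92 and -44 being CAGCTG, which is one spelling of CANNTG and so overlaps it. Chrng held CANNTG at -155, -132 and -75, with CAGCTG at -155 and -132, while Myog held CANNTG at -138 and -12. CANNTG, which reads the same on both strands, occurred in 7 of the 8 member windows (all but Myl4) and in 72.3% of 32851 RefSeq windows of the same length. CAGCTG occurred in 2 of the 8 and in 16.3% of all windows, and the CArG box, searched on both strands, in 1 of the 8 and in 1.6% of all windows. These matches describe letters only, and the genes shown were picked after their intensities were seen.

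**Figure D1:**
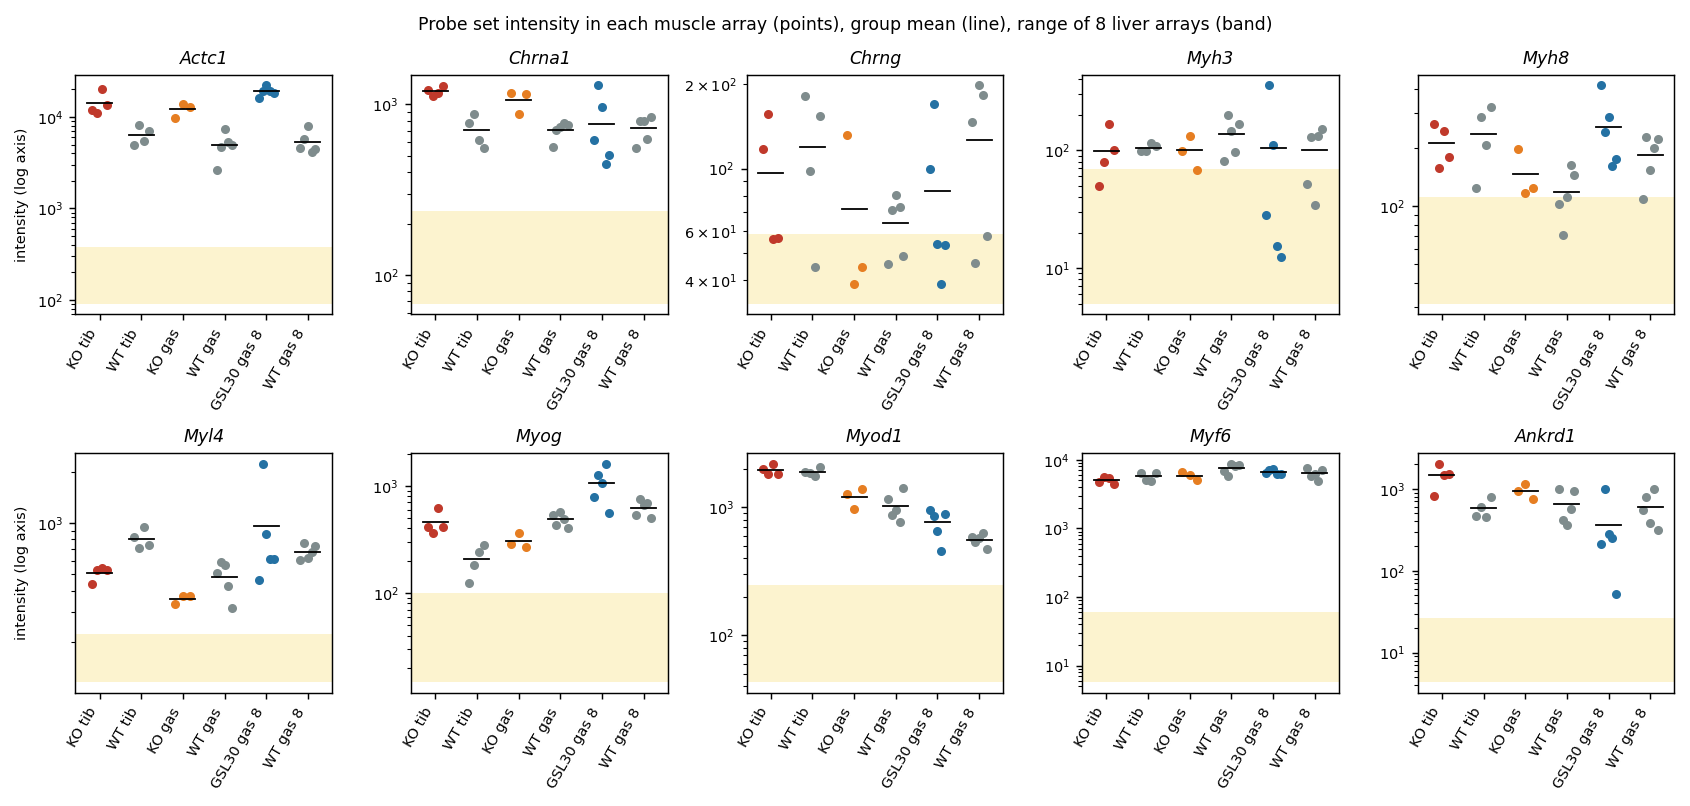
Intensity (log axis) of the leading probe set of each of the 10 genes in the 26 muscle arrays, by group (tib, tibialis; gas, gastrocnemius; ages 3 months unless marked 8); points are arrays, lines are group means, and the yellow band is the range of the 8 liver arrays. Actc1 lies higher in all mutant arrays than in their WT arrays, while Chrng, Myh3 and Myh8 are the dimmest, some of their muscle arrays inside the liver band and others, such as all 8 tibialis arrays of Myh8, above it.

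Of the 14 probe sets, 8 probe sets of 7 genes were bright enough to be tested. The other 6 fell below the 40th percentile of mean intensity, and among them were all probe sets of Chrng, Myh3 and Myh8. On the scale of log2(intensity + 50), 2 of the 8 passed an adjusted p of 0.05 in KO against WT tibialis, where 1.4% of all 13576 probe sets passed. By limma none of the 8 passed in KO against WT gastrocnemius, where 0.147% of all did, and 1 passed in GSL30 against WT gastrocnemius, where 4.31% did. Mutant and WT arrays did not overlap for 5 of the 8 in tibialis (10.1% of all probe sets), 3 of the 8 in KO gastrocnemius (9.98%) and 1 of the 8 in GSL30 gastrocnemius (7.38%). Since these contrasts helped to choose the genes, nothing is read from the counts. The median log2 difference of the 8 was 0.86, 0.39 and 0.16 in those 3 comparisons, beside 0.04, 0.05 and 0.03 over all probe sets tested. The choice of genes bears on these medians too, and Ankrd1 enters them with both its probe sets, so nothing is read from them either.

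Among the contractile genes, Actc1 was higher in all 3 mutant muscles. Its intensity was 11810.4, 11173.7, 20322.1 and 13428.4 in KO tibialis, against 4951.3, 8211.4, 5399.7 and 7065.3 in WT tibialis. It was 9726.3, 14031.2 and 12865.9 in KO gastrocnemius, against 2643.6, 4738.9, 7326.8, 5276.5 and 4893.3 in WT gastrocnemius. It was 16181.6, 19319.9, 22148.2, 19104.6 and 18388.8 in GSL30 gastrocnemius, against 4589.5, 5716.7, 7992.8, 4167.2 and 4421.6 in WT gastrocnemius at 8 months. Every mutant array lay above every array of its WT group in all 3 comparisons. The log2 difference was 1.13 ± 0.22 in KO tibialis, 1.34 ± 0.29 in KO gastrocnemius and 1.85 ± 0.17 in GSL30 gastrocnemius (SE), which are 2.19-fold, 2.53-fold and 3.60-fold. In the 8 liver arrays Actc1 ranged over 91 to 381.2. Without the arrays of high hepatocyte signal the log2 difference of Actc1 was 1.0 in KO gastrocnemius and 1.81 in GSL30 gastrocnemius. In KO tibialis the Actc1 call was lost when any 1 of the 8 arrays was left out, with differences of 0.94 to 1.26. In GSL30 gastrocnemius the 10 such fits gave differences of 1.77 to 2.0. Both contrasts helped to choose the genes, so these fits are a description and not a test. With the hepatocyte score in the model the GSL30 difference was 1.78 and Actc1 no longer passed there. Every GSL30 array scored below every WT array there, 7.825 to 8.888 against 9.005 to 10.962, so genotype and hepatocyte signal cannot be told apart by that fit.

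Actc1 is close in sequence to Acta1, the skeletal alpha-actin that replaces it after birth, and how far its probe set also binds Acta1 transcripts was not tested. Acta1 averaged 48289 ± 1190 in KO tibialis and 47299 ± 4266 in WT tibialis (SD, n = 4 each), a log2 difference of 0.03 ± 0.10 (SE). In GSL30 gastrocnemius Acta1 averaged 75936 ± 14790, against 64872 ± 10750 in WT (SD, n = 5 each), a log2 difference of 0.22 ± 0.16 (SE). In KO gastrocnemius Acta1 averaged 53602 ± 3270 (SD, n = 3), against 86402 ± 86030 in WT (SD, n = 5). The WT array with Acta1 at 239866.8 had Actc1 at 4738.9, within the range of its group. That array was also far higher in Ckm (259854.2) and Alb (245380.3), so its values cannot show what the Actc1 probe set binds. The 6 defining markers of cardiac muscle, where Actc1 is the main actin, were low throughout and none was at 0. They summed to 749.5 to 1094.9 in KO tibialis against 790.8 to 1012.3 in WT tibialis, to 594.9 to 986.6 in KO gastrocnemius against 776.4 to 1123.9 in WT, and to 835 to 1574.8 in GSL30 against 844.8 to 1059.3 in WT. The liver arrays gave 563.7 to 921.4 for the same sum.

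Slow fibre markers did not move with Actc1 in one direction. The sum of 8 markers, among them Myh7 and Myl3, none at 0, ranged over 35307 to 42112 in KO tibialis against 13736 to 18705 in WT tibialis, and over 76460 to 99845 in KO gastrocnemius against 35636 to 58040 in WT gastrocnemius. In GSL30 gastrocnemius it ranged over 24653 to 41417, against 52226 to 61607 in WT. In KO tibialis the list was split: 4 of the 8 markers were higher, 1 of them (Myl3) passed, and their median log2 difference was -0.03. In KO gastrocnemius all 8 were higher and 1 passed, and in GSL30 1 was higher and 7 fell. Actc1 was thus higher beside a higher slow fibre sum in both knockout muscles and beside a lower one in GSL30. The 7 endothelial markers, none at 0, followed the same pattern, summing to 15634 to 19034 in KO tibialis against 11430 to 13484 in WT, to 14004 to 15655 in KO gastrocnemius against 9073.3 to 11432 in WT, and to 8674.6 to 10470 in GSL30 against 13712 to 16458 in WT. In bulk muscle, fewer cells of a type and less RNA per cell cannot be told apart.

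**Figure D2:**
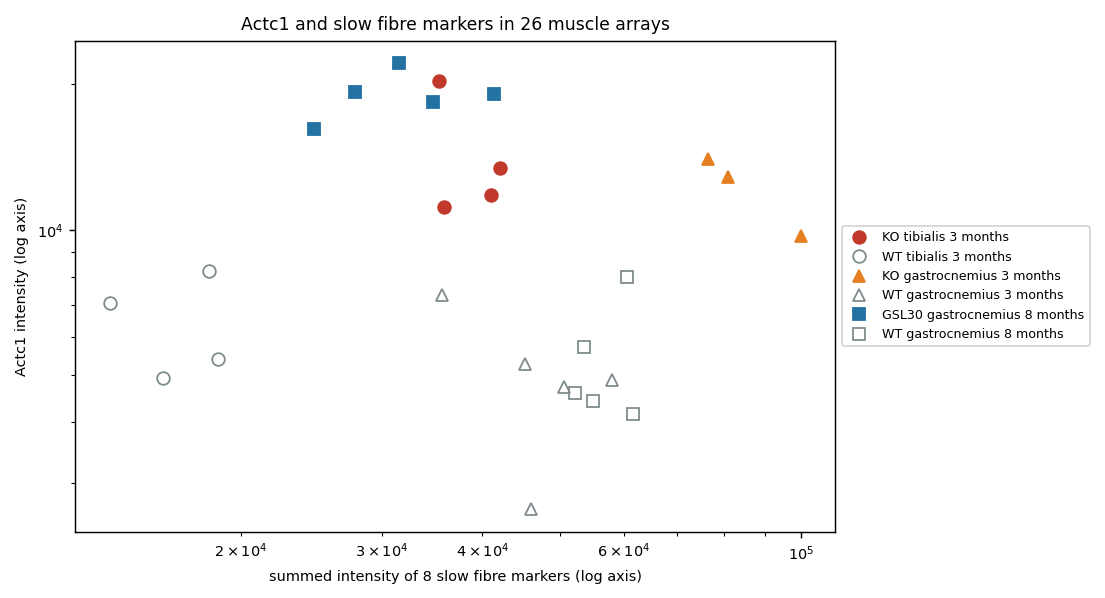
Actc1 intensity against the summed intensity of 8 slow fibre markers in each of the 26 muscle arrays (both axes log). Filled symbols are mutant and open symbols WT arrays; GSL30 arrays lie above and to the left of their WT arrays, KO arrays above and to the right of theirs.

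Myl4, the light chain of embryonic and atrial muscle, was lower in knockout tibialis. Its intensity was 438.0, 531.2, 542.5 and 527.2 in KO tibialis, against 823.2, 709.6, 951.1 and 738.9 in WT tibialis. All 4 KO arrays lay below all 4 WT arrays, a log2 difference of -0.61 ± 0.12 (SE). In gastrocnemius it was 332.8, 371.4 and 372.7 in KO, against 505.0, 589.6, 569.4, 429.0 and 315.2 in WT, with the groups overlapping through the lowest WT array (-0.35 ± 0.19, SE). In GSL30 gastrocnemius Myl4 was 464.0, 2226.6, 865.9, 615.3 and 610.3, against 602.0, 757.5, 619.6, 677.9 and 730.3 in WT. One GSL30 array, replicate 2, carried the mean: the log2 difference was 0.25 ± 0.32 (SE) with it and -0.10 without it. The dimmer of the Myl4 probe sets, at 49.4 to 365.8 in the muscle arrays, was not tested and overlapped in all 3 comparisons.

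The embryonic heavy chain Myh3 and the perinatal heavy chain Myh8 were below the filter on dim probe sets. Myh3 ranged over 49.5 to 168.4 in KO tibialis against 97.8 to 115.1 in WT, and over 67.6 to 132.4 in KO gastrocnemius against 80.5 to 198.3 in WT. In GSL30 gastrocnemius Myh3 was 28.2, 354.3, 111.1, 15.3 and 12.3, against 51.8, 129.8, 34.2, 132.7 and 151 in WT. As with Myl4, the highest GSL30 value was that of replicate 2. Myh8 was 418.6, 240.1, 288, 160.3 and 174.7 in GSL30 against 108.5, 227, 153.7, 199.7 and 221.5 in WT, with the groups overlapping. It ranged over 157 to 263.6 in KO tibialis against 123.7 to 324 in WT, and over 116.6 to 197.7 in KO gastrocnemius against 70.5 to 162.2 in WT. The 8 liver arrays, which lack these fibres, gave 5 to 69 for Myh3 and 31.3 to 111 for Myh8.

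Of the receptor subunits, Chrna1 was higher in both knockout muscles. Its intensity was 1212.4, 1119.6, 1173.1 and 1278.3 in KO tibialis, against 773.3, 882.7, 618.8 and 556.7 in WT tibialis. It was 1160.3, 883.7 and 1154.2 in KO gastrocnemius, against 564.5, 706.9, 737.8, 773.8 and 760.5 in WT gastrocnemius. All KO arrays lay above all WT arrays in each muscle, by 0.74 ± 0.15 in tibialis and 0.55 ± 0.15 in gastrocnemius on the log2 scale (SE). In GSL30 gastrocnemius Chrna1 was 618.1, 1291.7, 965.1, 448.0 and 506.6, against 552.9, 802.1, 796.8, 626.1 and 839.6 in WT, and the 5 GSL30 arrays spread to both sides of the WT range. The log2 difference in GSL30 was -0.01 ± 0.25 (SE), or -0.22 without replicate 2. In KO tibialis the Chrna1 call held in 1 of the 8 fits that each left out 1 array, the one without WT replicate 2.

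Chrng, the fetal receptor subunit, was dim in all 3 of its probe sets. The brightest of them ranged over 56.1 to 157.1 in KO tibialis against 44.4 to 180.9 in WT, over 38.7 to 131.9 in KO gastrocnemius against 45.5 to 80.4 in WT, and over 38.8 to 170.1 in GSL30 against 46.2 to 198.1 in WT. The other 2 ranged over 15.9 to 168.9 and 5.3 to 77 in the 26 muscle arrays. The liver arrays gave 33 to 58.5 for the brightest, and no group stood apart from its WT group. Chrne, the adult subunit that replaces Chrng, averaged 605.78 ± 99.31 in KO tibialis and 452.28 ± 85.02 in WT (SD, n = 4 each), a log2 difference of 0.39 with a limma adjusted p of 0.3104.

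Myog showed opposite directions in the knockout muscles. Its intensity was 413.7, 364.4, 626.8 and 413.9 in KO tibialis, against 125.1, 181.7, 242.2 and 281.3 in WT tibialis. It was 284.1, 359.7 and 267.9 in KO gastrocnemius, against 536.4, 434.2, 563.5, 492.5 and 399.8 in WT gastrocnemius. Every KO tibialis array lay above every WT array and every KO gastrocnemius array below every WT array, by 0.99 ± 0.22 and -0.60 ± 0.15 on the log2 scale (SE). The knockout difference in gastrocnemius minus that in tibialis was -1.58 ± 0.28 (SE). The muscles also differed in array set, which cannot be told apart from muscle in that difference. Among all probe sets, 0.0147% passed in that comparison of differences, and by limma none of the 8 member probe sets did. Without the 3 WT arrays of highest hepatocyte signal, Myog in KO gastrocnemius was -0.58.

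In GSL30 gastrocnemius Myog was 788.6, 1251.4, 1062.6, 1606.5 and 556.3, against 532.2, 755.2, 666.8, 683.7 and 497.6 in WT. In GSL30, 4 arrays lay above the highest WT array and 1 lay inside the WT range, a log2 difference of 0.64 ± 0.24 (SE). With the hepatocyte score in the model it was 0.39, and without WT replicates 2 and 5 it was 0.63. The GSL30 difference minus the knockout difference in gastrocnemius was 1.23 ± 0.32 (SE) for Myog, the 1 of the 8 member probe sets that passed there, beside 2.3% of all. The GSL30 and knockout arrays also differed in age and array set, which cannot be told apart from genotype in that difference. It passed in 3 of the 18 fits that each left out 1 array.

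Myod1, which acts earlier than Myog in the same cascade, and Myf6, the family member most abundant in adult fibres, overlapped between mutant and WT arrays in every comparison. Myod1 was 1968.4, 1818.2, 2179.3 and 1825.0 in KO tibialis, against 1865.8, 1855.7, 1758.4 and 2055.6 in WT tibialis (log2 difference 0.05 ± 0.11, SE). In KO gastrocnemius it was 1263.3, 974.0 and 1374.6, against 1152.2, 862.6, 950.0, 765.8 and 1411.8 in WT (0.24 ± 0.21, SE). In GSL30 it was 948.5, 854.7, 653.6, 454.1 and 885.7, against 583.2, 535.6, 569.8, 630.8 and 468.6 in WT, where 4 arrays lay above all WT arrays and 1 lay below them (0.38 ± 0.18, SE). For Myf6 the log2 differences were -0.17 ± 0.14 in KO tibialis, -0.37 ± 0.17 in KO gastrocnemius and 0.07 ± 0.13 in GSL30 gastrocnemius (SE). Its intensity ranged over 4446.6 to 5571 in KO tibialis against 4869.5 to 6490 in WT, over 5016.7 to 6579.5 in KO gastrocnemius against 5846.5 to 8754.2 in WT, and over 6136 to 7324.4 in GSL30 against 4974.2 to 7584.1 in WT.

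Ankrd1 was higher in knockout tibialis and lower in most GSL30 arrays. Its brighter probe set read 820.7, 2022.4, 1489.1 and 1510.4 in KO tibialis, against 459.2, 605.3, 450.2 and 788.3 in WT tibialis. The groups did not overlap, and the log2 difference was 1.24 ± 0.27 (SE). The dimmer probe set read 460.5, 1563.5, 1403.0 and 1438.1 in KO tibialis, against 569.4, 595.3, 398.2 and 552.8 in WT, so that KO replicate 1 fell within the WT range (1.01 ± 0.34, SE). In KO gastrocnemius the brighter probe set read 932.8, 1135.3 and 755.3, against 997.6, 417.5, 365.8, 563.9 and 936.4 in WT, with overlap (0.57 ± 0.33, SE). In GSL30 it read 212.1, 1007.2, 281.7, 249.4 and 52.0, against 543.3, 783.5, 384.6, 986.4 and 314.5 in WT. In GSL30, 4 arrays lay below all WT arrays and replicate 2 above all of them, and the log2 difference was -0.97 ± 0.50 (SE) with replicate 2 and -1.41 without it. The dimmer probe set ranged over 502.5 to 681.1 in KO gastrocnemius against 220.4 to 631.9 in WT (0.56 ± 0.31, SE), and over 133.5 to 370.2 in GSL30 against 202.7 to 484.9 in WT (-0.38 ± 0.23, SE), with overlap in both.

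The arrays of high hepatocyte score bore on the other members as well. Without the 3 WT arrays the log2 difference in KO gastrocnemius was 0.47 for Chrna1, -0.22 for Myl4, 0.04 for Myod1, -0.54 for Myf6 and 0.61 and 0.62 for the brighter and dimmer Ankrd1 probe sets. Myod1 and Myl4 thus lay nearer to 0 and Myf6 farther from it than with all arrays. Without the 2 WT arrays the difference in GSL30 gastrocnemius was 0.11 for Chrna1, 0.33 for Myl4, 0.29 for Myod1, 0.10 for Myf6 and -1.06 and -0.42 for the Ankrd1 probe sets, with Chrna1 on the other side of 0.

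GSL30 replicate 2 was the highest of its group in Chrna1, the brighter Myl4 probe set, Myh3, Ankrd1 (both probe sets) and the brightest Chrng probe set. It was not the highest in the dimmer Myl4 probe set or the other Chrng probe sets. The same array had the highest sum of macrophage markers, 40895 against 17568 to 29821 in the other 4 GSL30 arrays and 22736 to 28195 in the WT arrays, with 10 of 12 markers measured and none at 0. Its Cd68, a macrophage lysosomal protein, was 2203.7. The part of this in the gene values was not tested. Actc1 in that array, at 19319.9, lay inside the range of the other GSL30 arrays, and without it the Actc1 difference was 1.84.

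**Figure D3:**
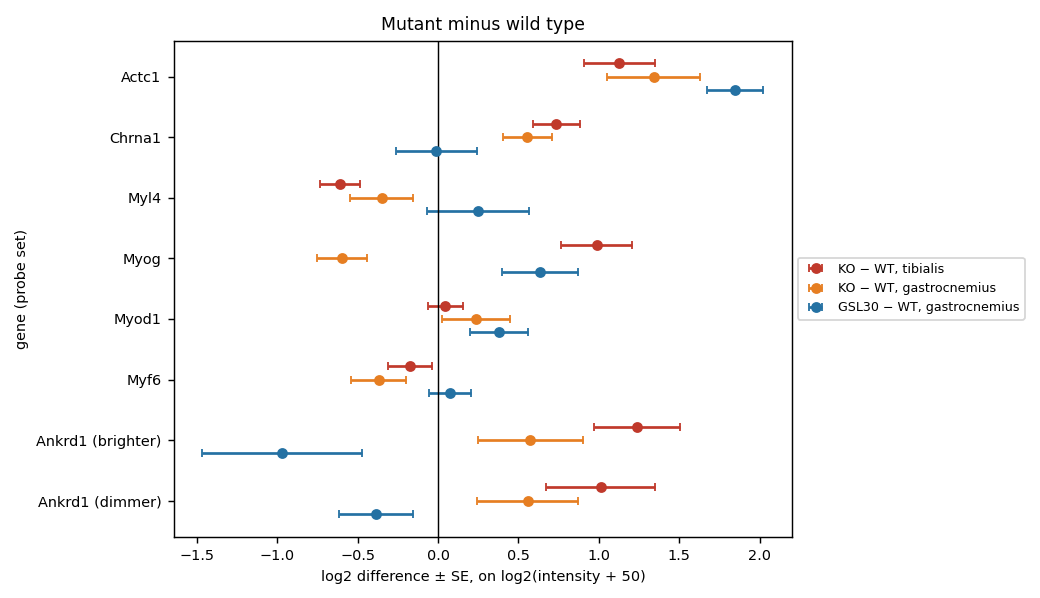
Log2 difference with its SE for the 8 tested member probe sets, KO or GSL30 minus WT, on log2(intensity + 50). Actc1 lies right of 0 in all 3 comparisons, Myog right of 0 in KO tibialis (0.99) and GSL30 (0.64) and left of it in KO gastrocnemius (-0.60).

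**Figure D4:**
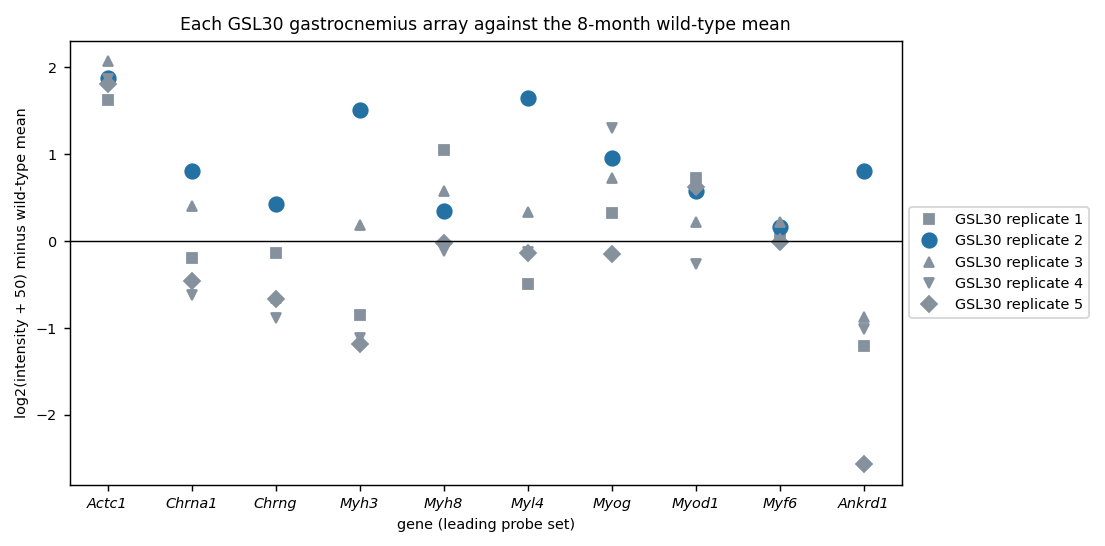
Each GSL30 gastrocnemius array minus the 8-month WT mean, on log2(intensity + 50), for the leading probe set of each gene. Replicate 2 (large blue circles) is the highest array for Chrna1, Chrng, Myh3, Myl4 and Ankrd1 and lies among the others for Actc1.

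Among wild-type muscles at 3 months, Myog was higher and Myod1 and Myl4 were lower in gastrocnemius than in tibialis. The KO tibialis and KO gastrocnemius differences of Myog above rest on these same WT arrays, which are its low and its high side here. As background, Myog is known to be more abundant in slow and Myod1 in fast muscles of rodents. Of the 8 member probe sets, 3 passed, beside 27% of all, so nothing is read from that count. Tibialis and gastrocnemius arrays belonged to different array sets, so muscle and array set cannot be told apart here. From the values above, all 5 gastrocnemius arrays lay above all 4 tibialis arrays for Myog, and below them for Myod1 and for Myl4. The share of all probe sets without overlap is not given for this comparison, so nothing is read from the lack of overlap. Myog rose by 1.09 ± 0.19 on the log2 scale (SE, limma adjusted p = 0.002991). Myod1 fell by 0.87 ± 0.17 (SE, limma adjusted p = 0.005113), and Myl4 fell by 0.71 ± 0.18 (SE, limma adjusted p = 0.01613). Myf6 differed by 0.41 ± 0.16 (SE, limma adjusted p = 0.07956) and passed without gastrocnemius replicate 2, at an adjusted p of 0.02531. Actc1 differed by -0.40 ± 0.27 (SE, limma adjusted p = 0.2856) and Chrna1 by 0.01 ± 0.16 (SE, limma adjusted p = 0.9556). The brighter Ankrd1 probe set differed by 0.11 ± 0.30 (SE, limma adjusted p = 0.8166). Myl4 missed the threshold without tibialis replicate 3, at an adjusted p of 0.05208.

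The same comparison carried a large difference in other cells. All 10 hepatocyte markers tested rose in gastrocnemius, 6 of 8 tendon and fibroblast markers fell (median log2 difference -1.11), 2 of 7 endothelial markers fell, and the slow fibre sum was 35636 to 58040 in gastrocnemius against 13736 to 18705 in tibialis. With a score of hepatocyte markers in the model, none of the 3 calls held: Myog was 0.96 (adjusted p = 0.3685), Myl4 -1.55 (adjusted p = 0.1288) and Myod1 turned to 0.15 (adjusted p = 0.8572). Every gastrocnemius array scored above every tibialis array, so hepatocyte signal and muscle cannot be told apart by that fit. Without the 3 gastrocnemius arrays of highest score, Myog was 1.07 (adjusted p = 0.04229), Myod1 -0.68 (adjusted p = 0.04916) and Myl4 -0.84 (adjusted p = 0.05342). Myf6 was then 0.58, Actc1 -0.07, Chrna1 0.10 and the brighter Ankrd1 probe set 0.07, and none of these passed. The part of the tendon, endothelial and slow fibre differences in these values was not tested.

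In WT gastrocnemius at 8 months, Myod1 was lower than at 3 months, at 468.6 to 630.8 against 765.8 to 1411.8. The groups did not overlap, and Myod1 fell by 0.80 ± 0.16 on the log2 scale (SE, limma adjusted p = 0.01621), the 1 of 8 that passed beside 6.19% of all. Myl4 did not overlap either, at 602 to 757.5 against 315.2 to 589.6, and differed by 0.48 ± 0.16 (SE, limma adjusted p = 0.1051). Myog differed by 0.33 ± 0.14 (SE, limma adjusted p = 0.1976) and Actc1 by 0.14 ± 0.26 (SE, limma adjusted p = 0.7882). The share of all probe sets without overlap is not given for this comparison. Nothing is read from the lack of overlap or from the count that passed. Chrna1, Myf6 and Ankrd1 did not pass either, at log2 differences of 0.02, -0.26 and -0.12. The Myod1 call was lost without 3-month replicate 1, at an adjusted p of 0.05071, without the arrays of high hepatocyte signal (-0.91, adjusted p = 0.1093) and with that score in the model (-1.40, adjusted p = 0.1501). Age and array set cannot be told apart here. The 3-month WT gastrocnemius arrays served in this comparison, in that with tibialis and in that with KO gastrocnemius, so those 3 share samples.

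**Figure D5:**
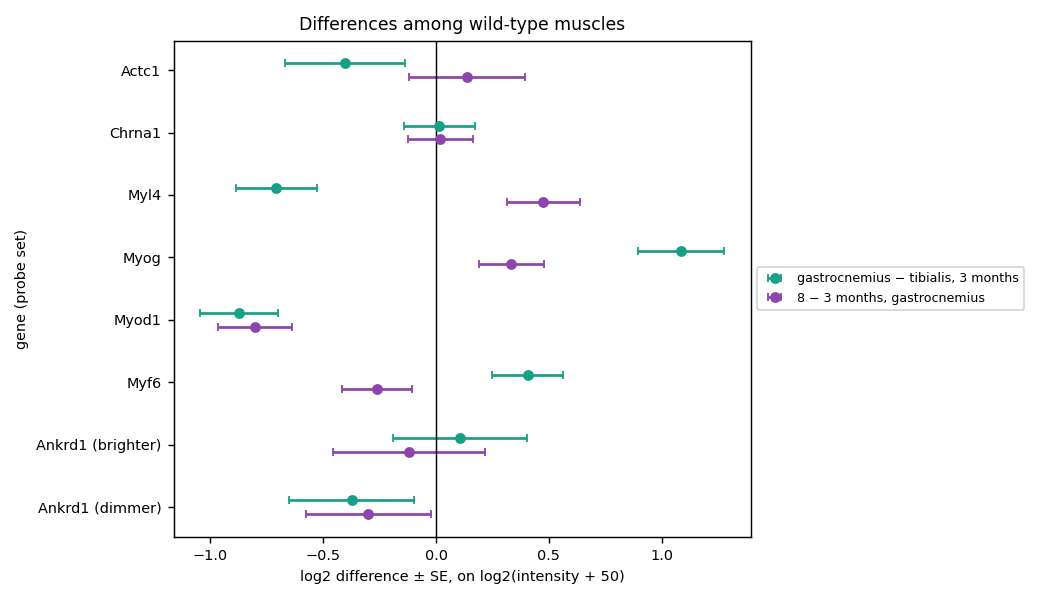
Log2 difference with its SE for the 8 tested member probe sets among WT muscles, on log2(intensity + 50): gastrocnemius minus tibialis at 3 months, and 8 minus 3 months in gastrocnemius. Myod1 lies left of 0 in both (-0.87 and -0.80), and Myog is furthest right in the muscle comparison (1.09).

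The genes around the members were read from 6 lists that held no member. The lists were chosen with earlier results of these data known, so their adjusted p-values are a description and not an independent test. Of all probe sets, 1.4% passed in KO tibialis, 0.147% in KO gastrocnemius and 4.31% in GSL30 gastrocnemius. Among WT muscles, 27% passed between gastrocnemius and tibialis and 6.19% between 8 and 3 months. In KO tibialis, 1 of 9 acetylcholine receptor and synapse genes tested rose, Ache, the acetylcholinesterase of the synaptic cleft, at 2202.4 ± 167.7 against 909.75 ± 219 in WT (SD, n = 4 each, limma adjusted p = 0.009276). In the stretch and injury list 1 of 20 rose, the small heat shock protein Cryab, by 0.67 on the log2 scale (limma adjusted p = 0.03509). In the fetal contractile and cardiac list 1 of 10 rose, the slow and ventricular light chain Myl3, by 2.0 (limma adjusted p = 0.002441). None passed of 11 myogenic regulators, 10 denervation and disuse genes or 11 adult counterparts (the contractile isoforms and Chrne), where the nearest were Tcf3 (0.24, limma adjusted p = 0.354), Camk2b (0.53, limma adjusted p = 0.08914) and Myh2 (0.47, limma adjusted p = 0.0949).

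In KO gastrocnemius only Myl3 passed among the 6 lists, higher by 1.11 (limma adjusted p = 0.03924). Musk, the kinase that organises the synapse, differed by -1.10 (limma adjusted p = 0.2092) and Camk2b by 0.80 (limma adjusted p = 0.1811). Mef2a differed by 0.34, Cryab by 0.43 and Chrne by 1.18, and none of the 3 passed. Chrne was 77.2 in WT replicate 2, against 398.2, 390.6, 397.7 and 549.4 in the other WT arrays, so that array enlarged its difference. Schwann cell markers, 4 of 7 measured and none at 0, summed there to 10606 to 12378 in KO against 6812.9 to 9039.9 in WT, and the part of this in Chrna1 and the synaptic genes was not tested.

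In GSL30 gastrocnemius, while Actc1 was higher, 5 of 10 fetal contractile and cardiac genes fell and none rose. Myh7, the slow and ventricular heavy chain, fell by 1.25 (limma adjusted p = 0.00636), Myl3 fell by 0.89 (limma adjusted p = 0.01906) and Myl2 fell by 0.97 (limma adjusted p = 0.02185). These 5 genes are also slow fibre genes, and Tnnc1 and Tnni1 complete them. Of the synapse list 1 of 10 fell, the dystrophin relative Utrn (-0.72, limma adjusted p = 0.01847), and of 12 myogenic regulators 1 fell, Tcf4 (-0.54, limma adjusted p = 0.04967). Of 21 stretch and injury genes the intermediate filament Des rose by 0.75 (limma adjusted p = 0.01626) and Vim, the intermediate filament of immature and mesenchymal cells, fell by 0.57 (limma adjusted p = 0.03162). Of 11 adult counterparts Myh2 fell by 0.65 (limma adjusted p = 0.02823). Schwann cell markers summed to 7338 to 9742.5 in GSL30 against 9954.4 to 14361 in WT, 3 of 8 tendon and fibroblast markers fell, and the part of these in Utrn and Vim was not tested. None of 9 denervation and disuse genes passed, the nearest being Gadd45a at 0.84 (limma adjusted p = 0.09974).

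Among WT muscles at 3 months, where muscle and array set cannot be told apart, Musk rose by 1.91 in gastrocnemius against tibialis (limma adjusted p = 0.0005503). Rapsn, which clusters the receptor, fell by 0.63 (limma adjusted p = 0.00643), with Agrn and Utrn also lower. Since 27% of all probe sets passed in this comparison, nothing is read from its list counts. Every gastrocnemius array also had a higher hepatocyte score than every tibialis array, and the part of this in the list genes was not tested. Of 9 denervation and disuse genes 4 rose, led by the ubiquitin ligase Fbxo32 (2.04, limma adjusted p = 0.0002551), Cdkn1a (1.79) and Sln (1.13), and 3 fell. In the fetal contractile and cardiac list 4 of 10 rose and 2 fell, among them Tnni1 (1.90) and the calcium store protein Casq2 (-1.87, limma adjusted p = 8.139e-05). In the stretch and injury list 3 of 20 rose and 4 fell, with Sparc at -1.18 and Myc at 0.65, while Tcf4 and Mef2a were the 2 of 12 myogenic regulators that fell and Myh1 the 1 of 11 adult counterparts. At 8 against 3 months in WT gastrocnemius, Msc, a repressor of the MyoD family, rose by 0.83 (limma adjusted p = 0.005902), and Agrn (0.79) and Utrn (0.61) rose in the synapse list. In the stretch and injury list 4 of 20 rose, among them Postn (1.14, limma adjusted p = 0.0137), Sparc (0.86) and Vim (0.64). No gene of the denervation, fetal contractile or adult counterpart lists passed there, the nearest being Sln (-1.21, limma adjusted p = 0.07418), Mybpc3 (0.31) and Chrne (0.72). The Chrne difference was enlarged by 3-month replicate 2, at 77.2. Macrophage markers rose in the same comparison for 5 of 9 and tendon and fibroblast markers for 5 of 8, and the part of this in Myod1 was not tested.

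Across the 26 muscle arrays the members did not form one block. Myog and Myod1 levels had a Pearson r of -0.678, and after the group means were subtracted r was -0.356. Chrna1 and Myl4 had r = -0.012 for levels and 0.602 for deviations from group means. The genes nearest to Actc1 in deviations were Mybph (0.73), a myosin-binding protein, Mlec (0.709) and Aamdc (0.661). Those nearest to Myl4 were Gpnmb (0.865), Ctsb (0.796) and Sln (0.763), and without the 2 arrays farthest from the Myl4 median these were 0.571, 0.426 and 0.294. Those nearest to Myog were Spidr (0.757), Coq5 (0.723) and Pold3 (0.664), and those nearest to Ankrd1 were Zfand2a (0.777), Lgals3 (0.733) and Dnaja4 (0.714). Those nearest to Chrna1 were Cmc2 (0.788), Lgals1 (0.735) and Fbxo3 (0.732), those nearest to Myod1 were Adam1b (0.776), the muscle methyltransferase Smyd1 (0.771) and Bcl6 (0.763), and those nearest to Myf6 were Kpna1 (0.769), Tex2 (0.76) and Mfsd8 (0.759). In levels, which also hold the group differences, the nearest to Actc1 were Wnk2 (0.866), Psmc3 (0.853) and Rnf14 (0.841), and the nearest to Myod1 were Sel1l3 (0.916), Trak1 (0.913) and Mtfr1 (0.904). Without the 2 arrays farthest from the member's median, r was 0.384 for Pold3, 0.487 for Lgals3, 0.539 for Aamdc, 0.543 for Coq5 and 0.576 for Adam1b, and between 0.607 and 0.75 for the other genes named for deviations, apart from those of Myl4 above. The arrays share their groups and array sets, so these correlations are descriptions.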

How the data were processed

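Affymetrix arrays of 34 mouse samples were read from the table of intensity values deposited by the authors, of which 26 were muscle. Per the labels' protocols, RNA was extracted with TRIzol and RNeasy columns and targets were made by standard Affymetrix procedures. The summarising and scaling software was not given in the sources used here. In the deposited table the intensity is linear, none is below 0, and the mean after trimming 2% at each end is nearly equal in all arrays, so changes shared by most transcripts cannot be seen. Probe sets were named from GEO's platform annotation: 20393 had 1 symbol, 691 had several and 1606 had none.

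The 64 control probe sets were left out, log2(intensity + 50) was taken, and limma 3.58.1 was run separately for each comparison on the arrays of its groups (lmFit and eBayes, R 4.3.3) over the 13576 probe sets above the 40th percentile of mean intensity, with Benjamini-Hochberg adjustment over all of them. Differences understate the change of dim genes, and the number of arrays limits precision. The script was tested on simulated data. The 10 members, their lists and the comparisons were chosen with earlier results of these data known. Named were all member probe sets, up to 3 passing genes per list by p (the nearest where none passed) and, of the 3 genes of highest correlation per member, those for deviations from group means in all 7 tested genes and those for levels in Actc1 and Myod1. The labels give no replicate numbers, so arrays were numbered in accession order and not paired. No 2 arrays shared more than 0.155% identical values.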

Additional observations from a re-analysis of the deposited data

Results flagged for a closer look

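Myog stood out in its 2 muscles. Its difference of knockout effects, gastrocnemius minus tibialis, was -1.58 on the log2 scale, since every KO tibialis array lay above and every KO gastrocnemius array below its WT arrays. The GSL30 difference minus the knockout difference in gastrocnemius was 1.23 for Myog. Both contrasts were among those behind the choice of genes, so neither value is a test.

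Single arrays lay far from the rest of their group for 3 of the 40 combinations of a probe set and a group of 4 or 5 arrays that were examined, where chance alone marks about 1 in 20. Chrna1 in WT gastrocnemius replicate 1 at 3 months was lowest at 564.5. Myl4 in KO tibialis replicate 1 was lowest at 438.0. Ankrd1, read by its dimmer probe set, was lowest at 460.5 in the same KO tibialis array.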

How the results depend on the processing

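No paired analysis was possible because the labels give no replicate numbers shared between groups. The number of member probe sets that passed depended on the settings, and the cause was not tested. In KO tibialis it was 2, and 4 with a pseudocount of 200, 4 with a filter at the 60th percentile, 4 with trended and robust eBayes, 0 without a filter, and 0 to 2 when 1 array was left out. In KO gastrocnemius it was 0, and 1 when all 26 muscle arrays entered 1 fit. In GSL30 gastrocnemius it was 1, and 0 with the hepatocyte score as covariate, and 1 to 2 when 1 array was left out. Between WT gastrocnemius and tibialis it was 3, and 0 with the hepatocyte score as covariate, where Myod1 reversed to 0.15, and 2 to 4 when 1 array was left out. Between 8 and 3 months it was 1, and 0 with the hepatocyte score or without the arrays of high score, and 0 to 1 when 1 array was left out. For the difference of knockout effects between muscles it was 0, and 0 to 1 when 1 array was left out. For the difference of GSL30 and knockout effects it was 1, and 0 with quantile scaling, a common median, a pseudocount of 200, no filter or without the arrays of high score, and 0 to 1 when 1 array was left out. These alternatives for the 2 differences of effects were added after seeing the data. Of 1159 member values under alternatives 42 had the opposite sign, and 41 of those were called in neither setting. Counts over all probe sets moved as well, between 63 and 321 in KO tibialis (190 as reported), 1 and 186 in KO gastrocnemius (20) and 0 and 1025 in GSL30 (585). They moved between 35 and 4660 for WT gastrocnemius against tibialis (3669) and between 2 and 1721 for 8 against 3 months (840). For the difference of knockout effects they were 0 to 7 (2), and for that of GSL30 and knockout effects 84 to 678 (312). The share of all probe sets is not given for each setting, so nothing is read from the member counts. Chrng, Myh3 and Myh8 lay below the filter on dim probe sets, so their signal limits what could be tested.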
